A study of Mus musculus with 36 samples.

Results

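The transcriptome of RM-1-BM cells expressing the F133V mutant of SPOP was compared with that of the same cells carrying an empty vector (EV), with both lines grown alone in the vehicle DMSO. RM-1-BM is a mouse prostate cancer line. The labels name the groups F133V+DMSO and EV+DMSO, with 3 libraries each, so 6 of the 36 libraries of the series entered the comparison. All 6 came from transduced cells without olaparib, the PARP inhibitor used elsewhere in the study, and without RAW264.7 macrophages. The labels do not say whether either transduced line is a pool or a clone, how long DMSO was given or whether the libraries came from separate cultures. P-values therefore measure the spread between libraries of the same group, which may be technical. That spread was pooled over the 24 cancer cell libraries of the series (8 groups), not over these 6 alone. A difference between genotypes cannot be told apart from any other difference between the 2 transduced lines.

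SPOP is the substrate adaptor of a cullin-3 RING ubiquitin ligase. Its MATH domain holds a substrate while its BTB domain binds CUL3, and the substrate is then marked with ubiquitin. Residues of the substrate-binding cleft, among them the phenylalanine changed in F133V, are recurrently mutated in prostate cancer, and such mutants bind substrates poorly while still pairing with the normal protein. The ligase acts on proteins, and only RNA was measured here.

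The mutated codon is shown to place the change within the gene. The stretch below is the reference mouse coding sequence of Spop from codon 123 to codon 143 (GENCODE M21, GRCm38), with the codon that F133V changes, which encodes phenylalanine and lies at chr11:95474529-95474531 on the plus strand, in capitals.
Spop: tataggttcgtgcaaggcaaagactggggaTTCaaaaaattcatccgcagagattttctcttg
The mutant carries F133V, a valine at this position. Gene counts do not show the codon. Spop stood at 116, 116 and 120.4 CPM in the vector libraries and at 104, 106 and 107 CPM in the F133V libraries (CPM: counts scaled to a common library size with edgeR's TMM factors). The difference was small (log2 fold change -0.15 ± 0.03, adjusted p = 7.2e-05), and whether reads of the introduced copy were counted as mouse Spop is not known. Cul3, the scaffold of the ligase, was likewise slightly lower (-0.21 ± 0.04, adjusted p = 2.4e-06).

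Gene counts per library ranged from 33895204 to 39325363. The median coefficient of variation between libraries of a group, over the 10027 genes at 5 CPM or more in either group, was 2.72% for vector and 3.01% for F133V. Of 11 markers of the prostate luminal lineage, 4 had no count in any of the 6 libraries, which allows a level of up to 0.076 to 0.089 CPM per library. The prostate secretory protein genes Pbsn and Msmb were among them. Only keratins reached a mean of 1 CPM: Krt8, Krt18 and Krt19 with vector, and Krt18 and Krt19 with F133V. The 11 markers summed to between 137 and 145 CPM with vector and between 101 and 104 CPM with F133V, mostly from Krt18. Mesenchymal markers summed to between 10300 and 10500 CPM in the vector libraries and to between 3230 and 3270 CPM in the F133V libraries, mostly from Fn1, whose values are given below. Not all of this list were called lower: Pdgfra was among those not called, and Col1a1 was called higher. The 15 macrophage markers summed to 25.1, 25.2 and 14.1 CPM in vector libraries 1 to 3 and to between 12.3 and 13 CPM in the F133V libraries, against 15200 to 17600 CPM in the macrophage libraries of the series. Vector libraries 1 and 2 thus held the higher trace, and the lysozyme gene Lyz2 shows it best: 3.38, 4.36 and 0.700 CPM with vector and 0.835, 0.642 and 0.967 CPM with F133V.

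F133V cells differed from vector cells across most of the transcriptome, mainly by small amounts. Of 15962 genes tested, 10809 (67.7%) passed an adjusted p under 0.05 in edgeR's quasi-likelihood test: 5378 (33.7%) were higher and 5431 (34%) lower in F133V. Most of these, 6242, differed by less than 1.5-fold. Differences of at least 2-fold were reached by 2536 genes (15.9%), and here falls outnumbered rises: 799 genes (5.01%) rose and 1737 (10.9%) fell. At 4-fold or more, 232 rose and 605 fell. The values of the 2 groups did not overlap for 70.4% of all genes. Without vector libraries 1 and 2, 9309 genes were called, 794 of them at least 2-fold higher and 1644 at least 2-fold lower.

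The direction of change varied with the level of the gene. Among protein-coding genes ranked by mean level and cut into 10 equal groups, the top group (median 251 CPM) had 58.6% of its genes higher and 31.2% lower. In the third group from the bottom (median 5.45 CPM), 20.3% were higher and 52.9% lower. With the same genes ranked by exon length or by GC content, the median log2 fold change stayed between -0.04 and 0.04 in every group, but the shares moved. From the lowest to the highest GC group the share higher went from 40.8% to 35.1%, the share lower from 32.9% to 39.1% and the share at least 2-fold higher from 1.76% to 8.15%. From the shortest to the longest exons the share higher went from 33.6% to 44% and the share lower from 32.2% to 40.3%. The share of counts by class of RNA also differed: protein-coding genes held 93.3% ± 0.11 of counts with vector and 89.9% ± 0.065 with F133V (SD, n = 3), and long intergenic noncoding RNA held 4.97% ± 0.094 and 7.97% ± 0.043. A single gene model annotated in this class, Gm26917, made up that increase: it took 0.2% ± 0.0014 and 3.84% ± 0.076 of counts, and the rest of the class 4.77% ± 0.095 and 4.14% ± 0.11. Which RNA the reads assigned to Gm26917 came from was not tested. Of 497 tested genes of the class 98 were higher and 120 lower. Gm26917 stood at 1893, 1908 and 1885 CPM with vector and at 38862, 39449 and 37899 CPM with F133V. With Gm26917, the structural RNAs and the mitochondrial genes taken out before scaling, 10757 genes were called.

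**Figure D1:**
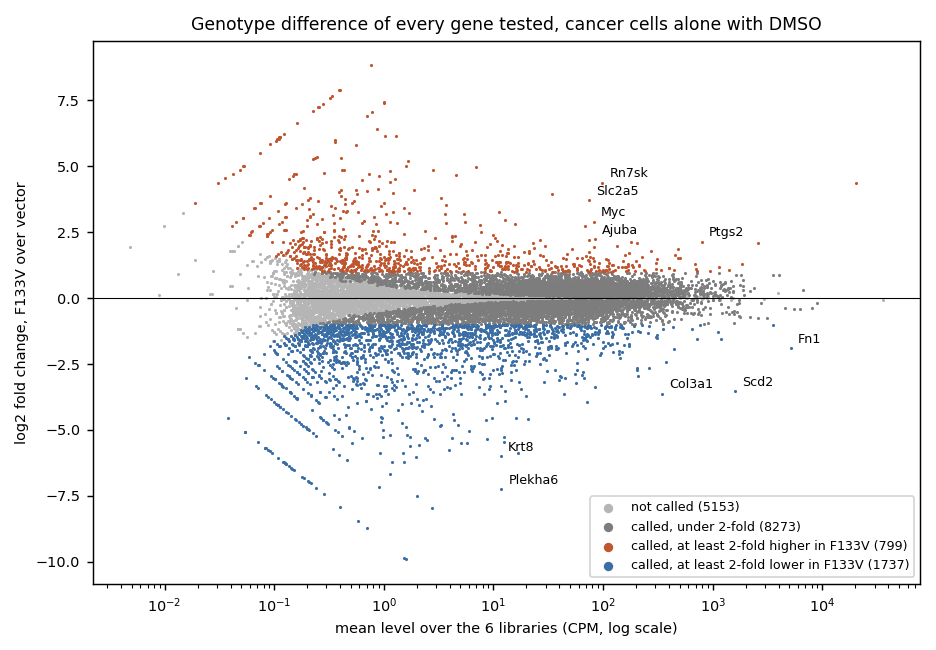
Mean level over the 6 libraries (CPM, log scale) against the log2 fold change of F133V over vector for the 15962 genes tested, with a point for each gene and 10 genes named. The 799 genes at least 2-fold higher (orange) and the 1737 at least 2-fold lower (blue) span the whole range of levels, and the lower ones are densest below 10 CPM. Among protein-coding genes in 10 groups by level, the share at least 2-fold higher was also larger at low level. It was 16% in the lowest group and 3.11% in the top group, and the share at least 2-fold lower 28.8% and 2.63%.

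The 15 largest rises and 15 largest falls are given among genes whose difference was called, whose vector and F133V values do not overlap and whose mean reaches 5 CPM in one of the lines. Gene models and genes of lists already known from these data (sterol, hypoxia, mitosis and NRF2) are left out of both. The gene models Gm26917 (log2 fold change 4.35) and Gm22063 (4.97) rose by more than the smallest of the 15 rises (2.83), and Car9, carbonic anhydrase 9, and the gene model A830036E02Rik fell by more than the smallest of the 15 falls. The rises included genes that were close to silent in vector cells. Tbx1, a T-box transcription factor, stood at 0.505, 0.337 and 0.181 CPM with vector and 9.19, 8.76 and 8.58 CPM with F133V. Oaf, a secreted protein gene, went from 0.0758, 0.361 and 0.104 CPM to 5.61, 4.98 and 5.68 CPM. In both genes all F133V libraries lay far above all vector libraries, and each vector library held few reads (3, 15 and 4 counts for Oaf), so the size of the fold is less certain than its direction. Slc2a5, which encodes the fructose transporter GLUT5, rose from 10.9, 11.2 and 9.67 CPM to 141, 141 and 134 CPM (3.71 ± 0.04, adjusted p = 2.9e-42). The proto-oncogene Myc rose 7.49-fold, from 19.5, 20.5 and 18 CPM to 151, 144 and 140.3 CPM (2.90 ± 0.05, adjusted p = 7.7e-36).

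Others of the 15 encode proteins of varied function. Pygm, muscle glycogen phosphorylase, rose from 0.884, 1.28 and 1.01 CPM to 10.1, 9.35 and 9.93 CPM, and Inpp4b, a phosphoinositide phosphatase, from 3.79, 3.88 and 3.94 CPM to 27.7, 26.9 and 28.1 CPM. Serpinf2, the plasmin inhibitor alpha-2-antiplasmin, was at 2.05, 2.31 and 1.94 CPM with vector and 20.4, 20.7 and 20.0 CPM with F133V. Dio2, which activates thyroid hormone, Npr2, the receptor of C-type natriuretic peptide, Fibcd1 and Amigo2 rose by log2 values of 2.84, 3.54, 3.17 and 2.98. Tigit, best known as an inhibitory receptor of lymphocytes, was at 1.46, 1.23 and 1.22 CPM and 9.64, 9.61 and 9.90 CPM. The T and B lymphocyte markers summed to at most 0.745 CPM in any of the 6 libraries, with 5 of 6 markers at no count throughout.

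The 15 falls were of genes at a moderate level in vector cells and close to 0 with F133V. In all, 18 genes, 17 of them protein-coding, had a mean of at least 5 CPM with vector and under 0.5 CPM with F133V, whereas 4 genes showed the opposite pattern: Gm22063, Oaf, Scarna2 and Tbx1. Krt8, a keratin of simple epithelia, fell from 23.9, 22.1 and 22.7 CPM to 0.179, 0.437 and 0.439 CPM (-5.99 ± 0.12, adjusted p = 2.6e-33). Its usual filament partner Krt18 did not differ detectably, at 102, 102 and 94.4 CPM and 98.4, 98.2 and 95.6 CPM (adjusted p = 4.2e-01). Plekha6, a gene of a PH-domain protein, fell from 23.1, 24.2 and 22.9 CPM to 0.0597, 0.205 and 0.176 CPM. Rnf150, a RING-finger gene, had 219, 213 and 228 counts with vector and 1, 0 and 1 with F133V, a ratio of 313 with a 95% exact counting interval from 86.3 to 2590.

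Of the 15 falls, Igfbp5, Dpt and Tnr encode secreted or matrix proteins. Igfbp5, a binding protein of insulin-like growth factors, fell from 33, 32.5 and 33.1 CPM to 0.358, 0.745 and 0.527 CPM, and Dpt, the matrix protein dermatopontin, from 24, 23.5 and 25 CPM to 0.388, 0.668 and 0.791 CPM. Tnr, the matrix glycoprotein tenascin-R, fell strongly (log2 fold change -5.34 ± 0.12). Abca1, the cholesterol exporter of the plasma membrane, fell from 23.9, 23.6 and 25.4 CPM to 0.388, 0.616 and 0.645 CPM. Enpp1, which makes pyrophosphate outside the cell and hydrolyses cyclic GMP-AMP, was at 16.8, 16.3 and 16.4 CPM with vector and 0.746, 0.796 and 0.439 CPM with F133V. Further falls were those of Sv2c, a synaptic vesicle glycoprotein (-5.29), the neurofilament light chain Nefl (-4.61), the arginine deiminase Padi1 (-4.80), Oas3, an interferon-induced oligoadenylate synthetase (-4.85), Cpne8 (-5.51), Tbc1d9 (-5.76) and Armcx2 (-4.80).

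**Figure D2:**
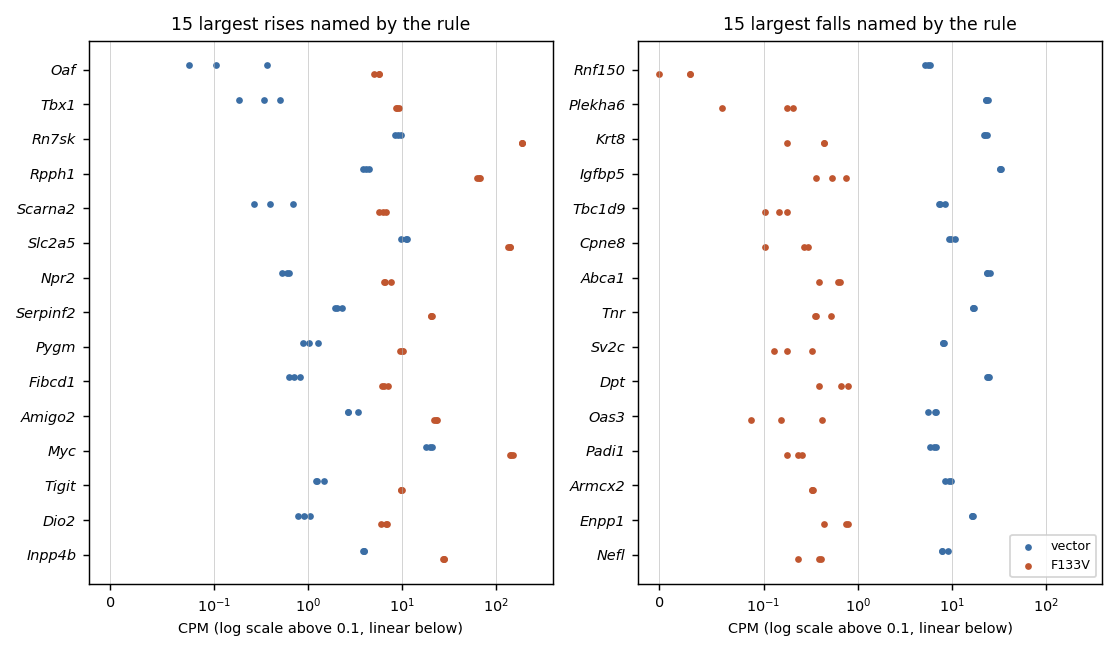
CPM of the 15 largest rises (left) and 15 largest falls (right) among named genes, without gene models and genes of the lists left out above, in each of the 3 vector (blue) and 3 F133V (orange) libraries, with a point per library on an axis that is logarithmic above 0.1 CPM and linear below. The groups do not overlap for any of the 30 genes, and the low group of each gene often lies below 1 CPM.

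Gene groups were described with 46 lists of genes that share a function, holding 1461 tested members. For each list the members called higher and lower are given with the median log2 fold change, to be read against 33.7% higher, 34% lower and a median of 0.001 over all genes tested. Those shares vary with level: among protein-coding genes, 58.6% of the top group by level were higher and 31.2% lower. In the third group from the bottom 20.3% were higher and 52.9% lower. The lists were not matched for level, so lists of abundant or of scarce genes may differ from the shares over all genes for that reason alone. No test of a list as a whole was made.

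**Figure D3:**
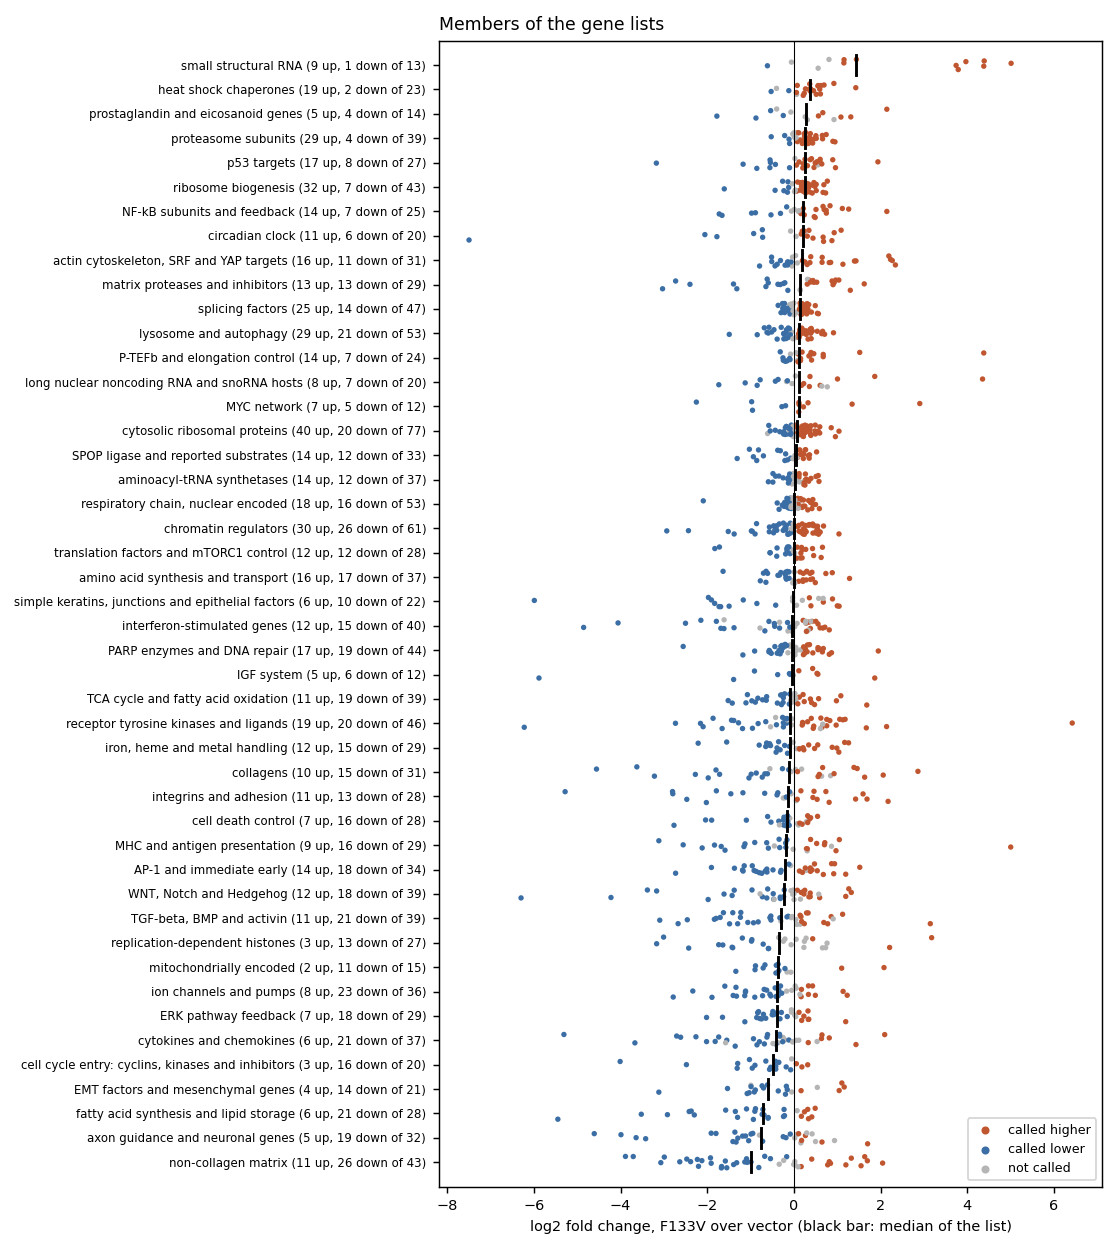
Log2 fold change of F133V over vector for each tested member of 46 gene lists (points; orange called higher, blue called lower, grey not called), with the median of each list as a black bar and its counts beside its name. Lists run from small structural RNA, with a median of 1.44, down to non-collagen matrix, at -0.99.

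Genes of the extracellular matrix made up the list with the lowest median. Of 43 tested genes for non-collagen matrix proteins, 26 fell, 21 of them at least 2-fold, and 11 rose (median -0.99). Fn1, fibronectin and one of the most abundant transcripts of these cells, fell from 8156, 8134 and 8000.4 CPM to 2172, 2149 and 2143 CPM (-1.91 ± 0.02, adjusted p = 3.2e-43). Tgfbi, a matrix protein induced by TGF-beta, fell from 357, 354 and 351 CPM to 56.4, 56.6 and 58 CPM, and Spp1, osteopontin, from 1756, 1770.1 and 1755 CPM to 593, 606 and 605 CPM. The proteoglycan biglycan went the other way: Bgn rose from 219, 222 and 220.2 CPM to 685, 686 and 681 CPM (1.63 ± 0.02). In each of these genes the libraries of a group lay close together and the groups were far apart.

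Collagens were mixed as a list, with 10 of 31 higher, 15 lower and a median of -0.12, but contained deep single falls. Col3a1, a fibrillar collagen, fell from 641, 648 and 630.1 CPM to 50.5, 52.5 and 52.4 CPM, a 12.3-fold change. Both tested chains of microfibrillar collagen VI named here fell, Col6a1 from 104, 104 and 99.8 CPM to 11.2, 10.7 and 11.2 CPM and Col6a2 from 30.6, 30.9 and 30.2 CPM to 1.19, 1.39 and 1.29 CPM. Col16a1 fell by a log2 value of -2.28. The fibroblast collagen Col1a1 was nearly absent from both lines, at 0.152, 0.241 and 0.104 and 0.477, 0.437 and 0.410 CPM. Proteases of the matrix and their inhibitors had 13 members higher and 13 lower of 29. Serpine2, an inhibitor of thrombin and urokinase, fell from 354, 355 and 355 CPM to 51.8, 53.4 and 55.1 CPM, while the urokinase receptor Plaur (1.04 ± 0.03), the metalloproteinase inhibitor Timp3 (0.96 ± 0.03) and the serine protease Htra1 (0.88 ± 0.02) rose.

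Mesenchymal genes and receptors of growth signals followed in part. In the list of epithelial-to-mesenchymal transition factors and mesenchymal genes, 14 of 21 fell and 4 rose (median -0.61). Vim, the intermediate filament of mesenchymal cells, fell from 1146, 1142 and 1128 CPM to 756, 736 and 746 CPM, and the surface enzyme Nt5e (CD73) from 25.2, 25.9 and 26.5 CPM to 3.22, 2.75 and 2.99 CPM. The transcription factor Sox9 fell (-0.89 ± 0.03) and Snai2, a repressor of E-cadherin, rose (1.04 ± 0.04). Dcn, the fibroblast proteoglycan decorin, went from 153, 150.0 and 151 CPM to 48.9, 45.5 and 48.3 CPM. In bulk RNA a smaller share of cells of one kind and less RNA per cell cannot be told apart.

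The TGF-beta, BMP and activin list had 21 of 39 members lower, 13 at least 2-fold, and 11 higher (median -0.30). Its inhibitors and targets fell most, with a median of -1.06 over 15. Id3, a target of BMP signals, went from 48.8, 48 and 47.5 CPM to 15.8, 15.3 and 15.6 CPM, and the decoy receptor Bambi from 18, 19.4 and 19.1 CPM to 3.25, 2.88 and 2.72 CPM. The co-receptor Tgfbr3 fell (-1.30 ± 0.03), and Ltbp1, which holds latent TGF-beta in the matrix, rose (0.78 ± 0.02). Among 39 genes of WNT, Notch and Hedgehog signalling 18 fell and 12 rose. Wnt5a, a ligand of the beta-catenin-independent branch, fell from 13, 13.9 and 13.4 CPM to 1.01, 1.10 and 1.76 CPM, and Wnt7b from 121, 124 and 125 CPM to 46.4, 46.4 and 49.3 CPM.

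Receptors and adhesion molecules changed in both directions, and neuronal genes fell. Among 28 integrins and adhesion genes, 13 fell and 11 rose. The hyaluronan receptor Cd44 fell from 440.5, 441 and 462 CPM to 158, 165 and 167 CPM, while Vcam1, a ligand of leukocyte integrins, rose from 38.9, 41.3 and 41.2 CPM to 110.3, 107 and 108 CPM. The protocadherin Pcdh7 (-2.47 ± 0.04) and the integrin chain Itga8 (-2.80 ± 0.08) fell. In the list of receptor tyrosine kinases and their ligands 20 of 46 fell and 19 rose. Mertk, a kinase that recognises dying cells through bridging proteins, went from 17.9, 17.2 and 16.9 CPM to 2.74, 2.41 and 2.67 CPM, and the semaphorin and VEGF receptor Nrp2 from 435, 442 and 440.3 CPM to 251, 247 and 246 CPM. Of 32 axon guidance and neuronal genes 19 fell and 5 rose (median -0.76), with 5 of the 6 neuronal genes lower and none higher, and with Nes, the progenitor filament nestin, at 20.3, 20.3 and 19.9 CPM and 1.19, 1.64 and 0.908 CPM. Feedback genes of the ERK pathway had 18 of 29 members lower and 7 higher (median -0.40), including the inhibitor Spry4 (-0.75 ± 0.02) and the ETS factor Etv5 (-0.84 ± 0.03).

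Most genes of fatty acid synthesis fell. Of 16 tested synthesis genes 15 fell, 8 at least 2-fold, with a median of -1.02. The exception was Acacb, the acetyl-CoA carboxylase of the outer mitochondrial membrane, at 1.69 CPM with vector and 2.36 CPM with F133V (0.49 ± 0.18). The values of the groups overlap for this gene, and it was no longer called without vector library 3 (0.39, adjusted p = 7.4e-02) or F133V library 2 (0.28, adjusted p = 2.2e-01). Scd2, a stearoyl-CoA desaturase, fell from 2951, 2967 and 2971 CPM to 257, 254 and 262 CPM (-3.52 ± 0.02, adjusted p = 2.2e-50), and its relative Scd1 from 637, 631 and 643 CPM to 118, 119 and 120.0 CPM. The desaturase Fads2 fell from 115, 113 and 111 CPM to 13.9, 16 and 14.7 CPM and the elongase Elovl6 from 116, 115 and 121 CPM to 23.7, 23.9 and 23.9 CPM. Fatty acid synthase, Fasn, fell less (-0.94 ± 0.02). Genes of lipid storage and export were divided, with 5 higher and 6 lower of 12.

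Other metabolic lists moved little as a whole. The TCA cycle and fatty acid oxidation had 19 of 39 members lower and 11 higher (median -0.08). The isocitrate dehydrogenases Idh1 (-1.52 ± 0.03) and Idh2 (-0.83 ± 0.03) and the acyl-CoA dehydrogenase Acadm (-1.11 ± 0.04) fell, and Cpt1a, which carries long-chain fatty acids into mitochondria, rose (0.98 ± 0.03). Amino acid synthesis and transport had a median of 0.00, with 16 higher and 17 lower of 37, although the transporter subunit Slc3a2 rose from 399.9, 403 and 391 CPM to 975, 977 and 952 CPM. Nuclear genes of the respiratory chain (18 higher, 16 lower of 53) and aminoacyl-tRNA synthetases (14 higher, 12 lower of 37) had medians of 0.01 and 0.02. Under scaling by library size alone the balance turned, with 12 higher and 28 lower (median -0.08) and 11 higher and 18 lower (median -0.07). The list of iron, heme and metal handling had 15 of 29 members lower and 12 higher (median -0.10). The metalloreductases Steap1 (1.17 ± 0.03) and Steap2 (1.26 ± 0.03) and ferritin heavy chain Fth1 (0.88 ± 0.02) rose, while the ferroxidase ceruloplasmin, Cp, fell (-2.21 ± 0.05).

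Genes of cell cycle entry fell on both sides of the control. Of 20 cyclins, kinases, inhibitors and pocket proteins 16 fell and 3 rose, with a median of -0.48. Ccnd1, cyclin D1, fell from 514, 515 and 511 CPM to 273, 281 and 272 CPM and Ccnd2 from 832, 831 and 865 CPM to 629, 629.7 and 632 CPM. Cdkn1a, the inhibitor p21, also fell, from 402, 406 and 408 CPM to 307, 304 and 293 CPM (-0.43 ± 0.02). E2f2, an activator of S-phase genes, went from 14.1, 12.6 and 15.2 CPM to 2.18, 2.75 and 2.52 CPM. Replication-dependent histones had 13 of 27 members lower and 3 higher, and Uhrf1, which guides DNA methylation after replication, fell from 43.7, 44.9 and 46 CPM to 16.1, 14.9 and 16.2 CPM.

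Targets of p53 were higher more often than lower: 17 of 27 rose and 8 fell (median 0.26). The kinase Plk2 rose from 34.2, 33.9 and 34 CPM to 127, 131 and 132.8 CPM, and the p53 antagonists Mdm4 (0.96 ± 0.03) and Mdm2 (0.53 ± 0.02) rose. Btg2, an antiproliferative target, fell (-1.17 ± 0.06), as did p21 above. In the list of cell death control 16 of 28 fell and 7 rose. The pro-apoptotic BCL2 relatives Bok and Bmf fell from 54.1, 54.3 and 50.3 CPM to 13.8, 15.2 and 13.4 CPM and from 11.7, 11.3 and 10.2 CPM to 1.46, 1.57 and 1.85 CPM, and the survival protein Mcl1 rose (0.39 ± 0.02).

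Several targets of YAP and TEAD rose. YAP is a coactivator held back by Hippo kinases, and it binds DNA through TEAD factors. Of 14 tested targets and partners 9 rose, 5 of them at least 2-fold, and 3 fell (median 0.32). The LIM protein Ajuba rose from 31, 29.2 and 28 CPM to 143, 137 and 133.2 CPM (2.23 ± 0.04, adjusted p = 6.8e-35). Amotl2, an angiomotin family member, rose from 9.42, 10.00 and 8.97 CPM to 44.4, 42.2 and 43.3 CPM, and the receptor kinase Axl from 256, 253 and 248 CPM to 559, 553 and 547 CPM. Of 3 targets often used to report on the pathway, Ankrd1 rose from 1.31, 0.891 and 0.803 CPM to 4.80, 4.91 and 4.83 CPM, Cyr61 was at 19.3 and 20.3 CPM (adjusted p = 2.9e-01), and Ctgf fell from 1.36 to 0.784 CPM. Cnn2, a calponin of the actin cytoskeleton, rose from 86.3, 82.8 and 81 CPM to 218, 221 and 219.6 CPM.

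The promoters of the 3 targets that rose most clearly at 10 CPM or more are shown because each holds the TEAD core motif. They are the 250 bases before the RefSeq start on the strand of the gene (GRCm38.p6), at chr14:54577662-54577911 on the minus strand for Ajuba, chr9:102717554-102717803 on the plus strand for Amotl2 and chr7:25788734-25788983 on the minus strand for Axl. Capitals mark GGAATG or its reverse complement CATTCC.
Ajuba: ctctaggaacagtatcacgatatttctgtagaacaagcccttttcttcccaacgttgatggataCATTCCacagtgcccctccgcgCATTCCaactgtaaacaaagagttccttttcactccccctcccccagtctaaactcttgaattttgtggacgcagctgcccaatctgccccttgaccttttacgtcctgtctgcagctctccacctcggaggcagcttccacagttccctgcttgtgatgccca
Amotl2: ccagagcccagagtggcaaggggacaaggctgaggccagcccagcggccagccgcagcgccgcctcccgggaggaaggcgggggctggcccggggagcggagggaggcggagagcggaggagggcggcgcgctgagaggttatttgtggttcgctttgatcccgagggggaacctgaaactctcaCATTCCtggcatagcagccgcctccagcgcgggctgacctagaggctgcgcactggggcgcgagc
Axl: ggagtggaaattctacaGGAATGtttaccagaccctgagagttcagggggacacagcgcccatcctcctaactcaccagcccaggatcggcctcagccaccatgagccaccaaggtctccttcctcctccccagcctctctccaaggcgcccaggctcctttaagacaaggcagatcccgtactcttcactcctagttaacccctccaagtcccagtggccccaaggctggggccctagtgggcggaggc
The motif starts 186 and 164 bases before the start in Ajuba, 65 in Amotl2 and 233 in Axl. On either strand it occurred in 7 of the 10 list members with a promoter in the table (Ajuba, Amotl2, Ankrd1, Axl, Ptpn14, Wwtr1 and Yap1). It occurred in 12.8% of the 10039 tested genes with a promoter, in 14.4% of those at least 2-fold higher and in 13.8% of those at least 2-fold lower. The list was built from known targets and partners of YAP and TEAD, so the motif in its members is a description.

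Components of the NF-kB pathway rose, while its feedback genes were divided. Of 11 subunits and kinases 9 rose, 1 fell and 1 was not called (median 0.67). Ikbkg, the regulatory subunit of the IkB kinase, rose from 70.1, 72.7 and 75.2 CPM to 174, 176 and 174 CPM, and the non-canonical subunits Nfkb2 (0.70 ± 0.03) and Relb (1.12 ± 0.05) rose. The gene that fell was Nfkb1 (-0.17 ± 0.03) and the gene not called was Rel. Ptgs2, the inducible cyclooxygenase, rose from 288, 289.7 and 299 CPM to 1282, 1271 and 1323 CPM (2.14 ± 0.03, adjusted p = 6.8e-40). Other steps of prostaglandin supply were divided: the phospholipase Pla2g4a (1.31 ± 0.03) and the exporter Abcc4 (1.08 ± 0.02) rose, and the terminal synthase Ptges fell from 89.5, 90.6 and 90.8 CPM to 27.5, 25.9 and 25.6 CPM. Of 14 feedback genes and targets 5 rose and 6 fell.

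Cytokine genes were mostly lower. Of 37 cytokines, chemokines and their receptors 21 fell and 6 rose (median -0.42). No tested chemokine rose and 6 of 8 fell. The higher macrophage trace lay in vector libraries 1 and 2, and without them there were again 6 of 8 lower and none higher. Cx3cl1, fractalkine, fell from 57.6, 59.8 and 57 CPM to 16.2, 16.5 and 16.8 CPM, and the interleukin-33 receptor Il1rl1 from 23, 23.3 and 25 CPM to 5.31, 6.29 and 5.95 CPM. Stat3, a signal transducer of interleukin-6 family receptors, fell (-0.80 ± 0.03). Csf1, the growth factor of macrophages, rose from 79.9, 76.5 and 74.3 CPM to 331, 329 and 326 CPM (2.09 ± 0.03, adjusted p = 2.5e-39). Of the other rises among these genes, Clcf1 also reached 2-fold (1.43). Interferon-stimulated genes had 15 of 40 lower and 12 higher, with Ifitm1 at 156, 154 and 154 CPM and 34.7, 35.3 and 34.4 CPM. The list of MHC and antigen presentation had 16 of 29 members lower and 9 higher (median -0.19). At least 2-fold, 8 fell and 2 rose. The class I heavy chain H2-K1 fell (-1.13 ± 0.03), and the chaperones Calr (1.05 ± 0.02) and Pdia3 (0.97 ± 0.02) rose. Cd274 (PD-L1) rose from 6.72, 7.71 and 8.03 CPM to 13.6, 11.6 and 11.7 CPM.

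Immediate early genes were divided, with 14 of 34 higher and 18 lower. The AP-1 subunit Fosl1 rose from 99.4, 95.7 and 95.5 CPM to 221, 226 and 218 CPM, Gadd45a, a stress sensor, from 42.3, 41 and 42.9 CPM to 120.0, 124 and 117 CPM, and Klf4 by 0.68 ± 0.02. Ier3 fell from 97.3, 96.9 and 98.3 CPM to 44.5, 43.4 and 44.1 CPM. The MYC-antagonist genes of the MXD family are in the same list as Myc, whose network had 7 of 12 members higher and 5 lower, and 4 higher and 5 lower both with library size alone and without vector libraries 1 and 2. Of 20 clock genes 11 were higher and 6 lower (median 0.21), among them the repressor Bhlhe40, which fell (-2.06 ± 0.03), and Nr1d2, which rose (1.09 ± 0.03). Ddit4, an inhibitor of mTORC1, fell from 206, 205 and 203 CPM to 60.1, 64.9 and 61.1 CPM.

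Most genes of ribosome biogenesis, the proteasome and heat shock chaperones rose. Ribosome biogenesis had 32 of 43 members higher and 7 lower (median 0.25), for example the processing factors Utp20 (0.73 ± 0.03) and Gnl3 (0.77 ± 0.03). Proteasome subunits had 29 of 39 higher and 4 lower (median 0.26), with the base ATPases Psmc2 (0.95 ± 0.02) and Psmc6 (0.90 ± 0.03) highest by significance. Among heat shock chaperones 19 of 23 rose and 2 fell (median 0.38). Hspa1b, the inducible HSP70, rose from 16.4, 16 and 16.5 CPM to 42, 43.5 and 46.2 CPM, and Hsp90aa1 from 596, 597 and 606 CPM to 955, 960.4 and 997 CPM. The 2 that fell were Hsp90ab1, the constitutive HSP90 (-0.53 ± 0.02), and Fkbp4 (-0.12 ± 0.02). Few of these genes reached a 2-fold change: 1 chaperone rose and 1 ribosome biogenesis gene fell that far, and no proteasome subunit did.

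Ribosomal proteins themselves depended on the scaling. With TMM 40 of 77 were higher and 20 lower (median 0.06), and with library size alone 31 were higher and 31 lower (median -0.03). Rpl15 rose from 474, 469 and 461 CPM to 963, 968 and 958 CPM and Rpl8 from 1163, 1161 and 1130.4 CPM to 2115, 2113 and 2046 CPM, and both were called higher under each scaling. The elongation factors Eef1a1 (-0.19 ± 0.02) and Eef2 (-0.40 ± 0.02) were lower, whereas the initiation factors Eif3a (0.66 ± 0.03) and Eif2s2 (0.63 ± 0.03) were higher.

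Small structural RNAs formed the list with the highest median, 1.44, with 9 of 13 higher, all at least 2-fold, and 1 lower. The 13 summed to only 19.7 CPM with vector and 273.9 CPM with F133V. Whether the counts of these short RNAs follow their amounts in the cell was not tested. Rn7sk, the 7SK RNA that holds the elongation kinase P-TEFb inactive, rose from 9.02, 9.66 and 8.32 CPM to 188, 189 and 187 CPM (4.38 ± 0.05, adjusted p = 7.2e-41). Rpph1, the RNA of RNase P, rose from 4.14, 4.38 and 3.86 CPM to 64.8, 67.3 and 62.2 CPM, and Snord118, the U8 small nucleolar RNA, from 0.0758, 0.120 and 0.0777 CPM to 3.58, 3.06 and 2.58 CPM. The mitochondrial ribosomal RNAs rose alongside, mt-Rnr2 from 934, 949 and 1099.6 CPM to 4137, 4156 and 4302 CPM and mt-Rnr1 from 428, 425 and 482 CPM to 934, 941 and 987 CPM. Of the 13 mitochondrially encoded protein genes 11 fell and none rose (median -0.41), among them mt-Nd1 from 2629.8, 2631 and 2928 CPM to 1577, 1659.8 and 1768 CPM and mt-Co1 from 8794, 8846 and 9322 CPM to 6780.1, 6871 and 7294 CPM. The 2 not called were mt-Atp8 and mt-Nd5. Hexim1, the protein partner of 7SK, fell slightly (-0.25 ± 0.03), and the nuclear noncoding RNA Malat1 fell (-0.43 ± 0.06).

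Transcripts of reported SPOP substrates moved in both directions, and 2 of them, Ccne1 (-1.31) and Cdc20 (-1.03), fell at least 2-fold while none rose that far. Of 29 tested substrates 12 were higher and 10 lower under TMM (median 0.05), and 8 were higher and 13 lower with library size alone (median -0.04). Trim24 rose by 0.13 ± 0.03 under TMM but was not called with library size alone (0.04, adjusted p = 0.29). The steroid receptor coactivator Ncoa3 was not called (0.05 ± 0.03, adjusted p = 8.4e-02). The ETS factor Etv4 fell from 86, 81.6 and 82.4 CPM to 46.9, 45.3 and 45.7 CPM. PARP enzymes and DNA repair genes had 17 of 44 members higher and 19 lower: Parp1, the main target of olaparib, was lower (-0.32 ± 0.03), the end-joining subunit Xrcc5 was lower (-0.91 ± 0.03) and the tankyrase Tnks2 was higher (0.68 ± 0.02). Polycomb genes had 11 of 14 higher and 2 lower (median 0.22), the latter being Ezh2 (-0.47) and Jarid2 (-0.98).

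The genotype difference also varied by chromosome. Over the 9763 genes with a position and at 5 CPM or more, the median was 0.04. Chromosome 4 stood lowest at -0.29, with 69.9% of its 614 genes lower and 12.9% higher. Chromosomes 19, 14 and 15 stood highest, at 0.31, 0.29 and 0.22, with 69.1%, 63.8% and 59.4% of genes higher. The next highest median was 0.14 on chromosome 13, and the next lowest -0.09 on chromosome 17. On chromosome 4 the shift was not even: the 59 genes in the first 40 Mb had a median of -0.06, and the 555 genes beyond had -0.31. In windows of 10 Mb the lowest median there was -0.65 (80 to 90 Mb, 19 genes). Of the 243 windows of 10 Mb in the genome with at least 10 such genes, 11 of the 20 lowest lay on chromosome 4 and 11 of the 20 highest on chromosome 14 or 19.

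The lowest window on chromosome 4 holds Cdkn2a and Cdkn2b, the INK4 and ARF inhibitors, and their neighbour Mtap. These were picked after their values were seen. Cdkn2a and Cdkn2b had no count in any of the 6 libraries. Mtap, a methionine salvage enzyme, stood at 388, 385 and 390 CPM with vector and 219, 213 and 221 CPM with F133V. Mtap fell more than the median gene of its window, and DNA copy number was not analysed here.

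**Figure D4:**
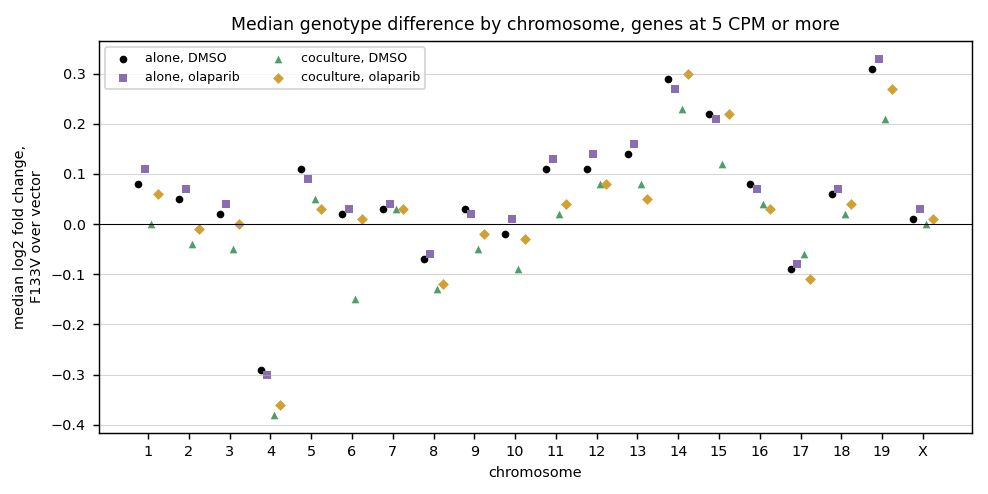
Median log2 fold change of F133V over vector for genes at 5 CPM or more on each chromosome, with a symbol for each of the 4 culture conditions. Chromosome 4 lies between -0.29 and -0.38 and chromosome 19 between 0.21 and 0.33 in the 4 conditions.

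The same 2 lines were also compared under olaparib, opposite macrophages in coculture and with both, in libraries that share none with the comparison above. Of the 799 genes at least 2-fold higher here, 602 (75.3%) were called higher with olaparib alone, 652 (81.6%) in coculture with DMSO and 450 (56.3%) in coculture with olaparib, where 34.3%, 37.4% and 28.8% of all genes were called higher. For the 1737 lower genes the shares were 89.1%, 83.3% and 70.5%, against 33.2%, 42% and 31.2% of all genes called lower. In all 4 conditions 1460 of the 2536 genes (57.6%) were called in the same direction, and 747 differed at least 2-fold in each. The chromosome medians held as well: chromosome 4 was at -0.30 with olaparib, -0.38 in coculture and -0.36 in coculture with olaparib.

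How steady the difference was varied between single genes. Slc2a5 differed by 3.71 here and by 4.12, 3.31 and 3.74 on the log2 scale with olaparib, in coculture and in coculture with olaparib. Plekha6 differed by -7.25, -6.76, -8.78 and -6.57 in the same order, and Krt8 by -5.99, -6.85, -5.33 and -5.36. Scd2 was less steady, at -3.52, -2.94, -2.65 and -0.21, and so was Csf1, at 2.09, 2.35, 0.65 and 0.76. Myc had 2.90, 3.71, 1.80 and 1.59. Among the largest changes, Amigo2 had 2.98, 3.71, 0.16 and 2.05, and Sv2c had -5.29, -5.34, -2.82 and -0.35.

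Tests of the difference itself bore on fewer genes for olaparib than for coculture. The genotype difference changed with olaparib in 3867 genes (24.2%), of which 2122 (13.3%) shifted upward and 1745 (10.9%) downward, and by at least 2-fold in 185 (1.16%). With library size alone the split was 4207 upward and 883 downward. Coculture changed the genotype difference in 10008 genes (62.7%), 4814 (30.2%) upward and 5194 (32.5%) downward, and by at least 2-fold in 2546 (16%). With library size alone that split was 3603 and 6487. Ccnd1 fell further in coculture (-2.34 against -0.90, difference -1.44 ± 0.03, adjusted p = 3.8e-30), and Csf1 rose less (0.65 against 2.09, difference -1.44 ± 0.04, adjusted p = 2.5e-28).

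**Figure D5:**
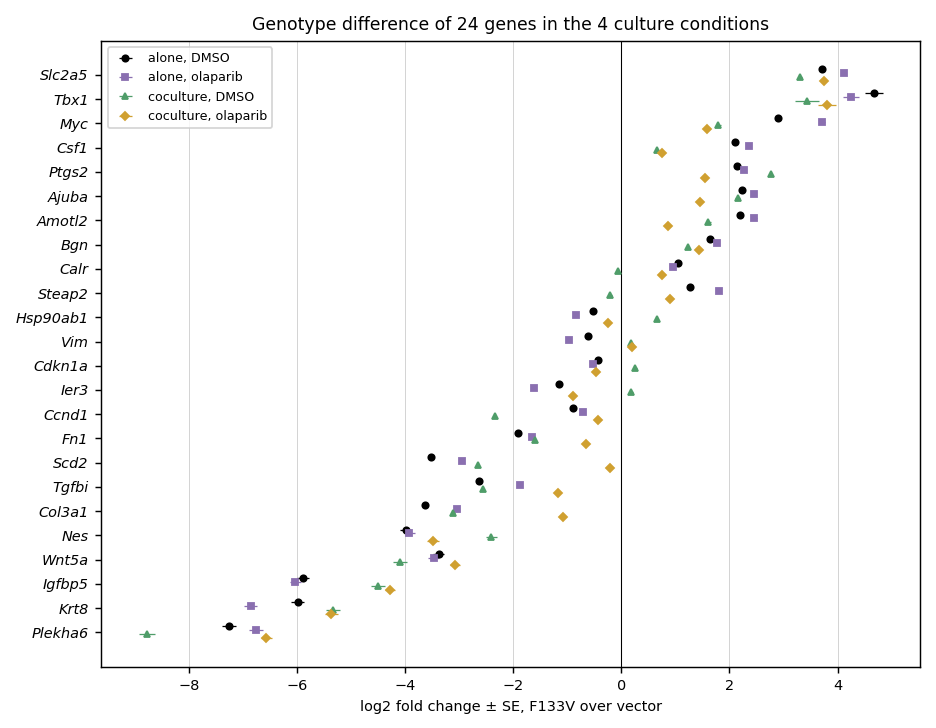
Log2 fold change ± SE of F133V over vector for 24 genes in 4 culture conditions (circles alone with DMSO, squares alone with olaparib, triangles coculture with DMSO, diamonds coculture with olaparib). Plekha6, Krt8 and Igfbp5 lie far below 0 in all 4 conditions, and the values of Hsp90ab1, Vim, Cdkn1a and Ier3 in coculture with DMSO lie on the other side of 0 from the value with cells alone and DMSO. All values were scaled with TMM.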

How the data were processed

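RNA was measured by bulk sequencing in 36 libraries of 12 groups of 3, of which the 24 libraries of the cancer cells (8 groups) entered the fit and 6 the comparison. The authors deposited raw read counts per gene for 46078 genes, with 5 summary lines that were left out. The submitters' processing notes name STAR, TopHat, HTSeq, DESeq2 and GRCm38; the aligner behind these counts, tool versions and strandedness are not given in those notes, so reads of a gene and of an antisense partner cannot be told apart. In the 6 libraries 18.1% to 20.7% of reads fell in no feature, 1.23% to 1.32% were ambiguous and 5.79% to 6.22% were not unique. Libraries of the same group were compared pairwise, and 0 of 36 pairs held identical values.

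Counts were analysed with edgeR 4.0.16 (quasi-likelihood test, TMM scaling, filterByExpr with a minimum count of 10) and limma 3.58.1 in R 4.3.3. TMM factors were 1.055 to 1.056 for vector and 0.989 to 0.991 for F133V, the fit had 16 residual degrees of freedom and the common biological coefficient of variation was 2.61%. P-values were adjusted by Benjamini-Hochberg over the 15962 genes tested, and called means an adjusted p under 0.05. Values after ± on the log2 scale are standard errors. On simulated data for this comparison (15502 genes, 50 changed at each size), 74%, 82%, 100% and 100% of genes changed by 1.2, 1.5, 2 and 3-fold were called, and 4.3% of calls were false. There all other genes were unchanged, and rises and falls were equal in number. In the data 67.7% of genes were called, so the simulation cannot show how many calls are false through scaling. Other settings were DESeq2 1.42.0, RLE factors, library size alone, no count filter, only the groups compared, a replicate block, each library left out, vector libraries 1 and 2 left out, structural and mitochondrial RNA removed, and protein-coding genes only.

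The genes and the 46 lists were chosen with earlier results of these data known. Genes are named by a rule: the 15 largest rises and falls among genes at 5 CPM or more in either group whose values do not overlap (leaving out gene models, pseudogenes and genes of lists known from earlier results), up to 4 per list, the 10 most abundant, a fixed set, and markers at 1 CPM or more. Outside it, 20 genes were named after their values were seen, among them Acacb, Cyr61, Ctgf, Ezh2, Jarid2, Mtap and Nfkb1. Positions come from GENCODE M21 (99.4% of genes tested) and promoters from RefSeq (GRCm38.p6; 10039 of 15947 symbols matched). Of the 182 genes named, 57 share exon bases with another gene and their counts are less certain: A830036E02Rik, Amigo2, Bhlhe40, Car9, Ccnd1, Ccnd2, Cd274, Cdc20, Cdkn1a, Clcf1, Col3a1, Cp, Ctgf, Ctsl, Dio2, Eef1a1, Elovl6, Ezh2, Fn1, Fosl1, Gadd45a, Gnl3, Hdac5, Ikbkg, Irs1, Itga8, Krt8, Malat1, Ncoa3, Nefl, Nfkb2, Npr2, Padi1, Parp1, Pcdh7, Pdgfra, Pdia3, Plekha6, Ptpn14, Rnf150, Rpl15, Rpph1, Scd2, Spp1, Stat3, Tbc1d9, Tgfbr3, Timp3, Tnr, Vcam1, Wnt5a, Wnt7b, Yap1, mt-Atp8, mt-Co1, mt-Nd1 and mt-Nd5. A few genes are not reported here. Figures were drawn with matplotlib 3.10.9.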

Additional observations from a re-analysis of the deposited data

Results flagged for a closer look

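For 14 of the genes named here the genotype difference was called in opposite directions in cells alone with DMSO and in coculture with DMSO, and the difference between these conditions was itself called in edgeR's interaction test. Over all genes this held for 1436 (9%) under TMM scaling. The corresponding count for olaparib against DMSO in cells alone was 212 (1.33%), among them 1 gene named here, Acacb.

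Under TMM scaling, genes lower with F133V in cells alone and higher with F133V in coculture included signalling and structural genes. Vim went from -0.61 to 0.18 on the log2 scale (coculture minus alone 0.79 ± 0.03), Cdkn1a from -0.43 to 0.26 (0.69 ± 0.03) and Ier3 from -1.15 to 0.18 (1.33 ± 0.05). Hsp90ab1 went from -0.53 to 0.66 (1.19 ± 0.03), Eef2 from -0.40 to 0.38 (0.78 ± 0.03) and Eef1a1 from -0.19 to 0.24 (0.43 ± 0.03). The macrophage marker Cd68 went from -0.53 to 0.99 (1.52 ± 0.15). The 15 macrophage markers summed to 13.3, 12.3 and 13.8 CPM in the vector libraries of the coculture and to 15.2, 15.2 and 16.9 CPM in its F133V libraries, against 25.1, 25.2 and 14.1 CPM and 12.5, 12.3 and 13 CPM in cells alone; the part of macrophage RNA in the Cd68 values was not tested.

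Genes that were higher in cells alone and lower in coculture were Timp3, from 0.96 to -0.37 (-1.33 ± 0.04), Steap2, from 1.26 to -0.20 (-1.46 ± 0.04), and Calr, from 1.05 to -0.07 (-1.12 ± 0.03). The proteasome activator Psme2 went from 0.74 to -0.50 (-1.25 ± 0.05), Uqcrq of respiratory complex III from 0.50 to -0.56 (-1.05 ± 0.04) and cytochrome c, Cycs, from 0.44 to -0.45 (-0.89 ± 0.04). Ptpn14, a phosphatase that binds YAP, went from 0.19 to -0.10 (-0.30 ± 0.03). With library size alone the median interaction of all genes was -0.17 against -0.01 with TMM. The 14 differences kept their sign and were called in each of 22 settings, and that of Eef1a1 was 0.27 with library size alone. The coculture values themselves were fitted with TMM only. Its factors there were 1.017 to 1.023 for vector and 0.849 to 0.866 for F133V. Such factors raise F133V values relative to vector values, compared with library size alone. Small positive coculture values, such as those of Vim, Ier3, Cdkn1a and Eef1a1, may therefore not stay above 0 under that scaling. Their opposite directions hold for TMM only, and a fit of the coculture values under another scaling was not made. Groups of 3 libraries are too small for a test of single outlying libraries, so none was made.

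Acacb was at 0.49 ± 0.18 in cells alone with DMSO and at -1.33 under olaparib, a difference of -1.82 ± 0.27. It stands under 3 CPM in every library of the comparison, and in DMSO the values of the groups overlap.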

How the results depend on the processing

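The counts of genes called stayed within 1.5 times the values of the report in every setting run. Genes called ranged from 9309 to 10970 (10809 in the report): 10478 with DESeq2, 10802 with RLE factors, and 10825 with library size alone, where 4381 were higher and 6444 lower. Genes at least 2-fold higher ranged from 564 to 952 and those at least 2-fold lower from 1354 to 1970. Genotype differences that changed ranged from 2762 to 5090 under olaparib and from 9107 to 10090 in coculture. With 1 library left out, the ranges were 10332 to 10462 called, 771 to 835 higher, 1725 to 1774 lower, 3456 to 4117 and 9707 to 9848. The medians by chromosome, relative to all genes, ran from -0.33 to -0.32 for chromosome 4, from 0.24 to 0.27 for chromosome 14 and from 0.27 to 0.28 for chromosome 19. Without vector libraries 1 and 2, where the remaining vector library is assumed to vary like the other groups, chromosomes 4 and 14 stood at -0.32 and 0.24, and Lyz2 reversed to 0.21. Of the single genes, Trim24 was not called with library size alone (0.04, adjusted p = 2.9e-01), where Krt18 (-0.12) and Yap1 (-0.12) became called. Ncoa3 became called without vector library 2 (0.07), and mt-Nd5 without the count filter (-0.07) and with only the groups compared (-0.08). With library size alone the median of all genes was -0.09, and the medians of cytosolic ribosomal proteins (-0.03), aminoacyl-tRNA synthetases (-0.07), SPOP with its reported substrates (-0.04), nuclear-encoded respiratory chain genes (-0.08) and chromatin regulators (-0.09) turned negative. The cause of these changes was not tested.

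With a replicate block in the fit, 10805 genes were called, 795 at least 2-fold higher and 1729 at least 2-fold lower, with 3906 differences under olaparib and 10013 in coculture. Deviations of same-numbered libraries from their group means correlated at 0.08, 0.01 and 0.20 over 9386 genes, and the numbers were not taken as pairs. Vector libraries 1 and 2 correlated best with another number (0.09 and 0.06). F133V library 1 (0.08) and the libraries numbered 3 (0.20) correlated best with their own number. At this depth a gene with no count could still stand at up to 0.076 to 0.089 CPM, and 3 libraries a group limit every error given.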

Other observations

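Lists not described above held further changes. Ion channels and pumps had 23 of 36 members lower and 8 higher (median -0.39). The calcium-activated potassium channel Kcnn4 fell from 177, 179 and 170.1 CPM to 79.9, 83.3 and 79.2 CPM and the mechanosensitive channel Piezo2 from 31.3, 29.5 and 31.9 CPM to 12.1, 12.2 and 12.3 CPM. Lysosome and autophagy genes had 29 of 53 higher and 21 lower (median 0.12), but 21 higher and 24 lower with library size alone. Autophagy genes were higher in 12 of 17, while the lysosomal hydrolases and membrane proteins were higher in 10 and lower in 13 of 25, among them cathepsin L, Ctsl (log2 fold change -0.59 ± 0.02), and the saposin precursor Psap (-0.51 ± 0.02). Core splicing factors were higher in 10 of 14 and lower in 2, each by less than 2-fold.

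Single markers of other lineages also differed between the lines. The keratins Krt19 and Krt15 moved in opposite directions, Krt19 from 19.1, 19.4 and 19.9 CPM to 5.70, 4.93 and 5.01 CPM and Krt15 from 7.85, 8.12 and 7.36 CPM to 25.1, 21.8 and 22.4 CPM. Acta2, smooth muscle actin, rose from 1.39, 1.45 and 1.27 CPM to 6.86, 7.06 and 6.94 CPM. The histone deacetylase Hdac5 fell from 105, 109.8 and 104 CPM to 42.4, 40.2 and 39.8 CPM, and Irs1, the docking protein of insulin and IGF receptors, from 144, 144 and 148 CPM to 77.2, 75.7 and 79.3 CPM.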
